A study of Mus musculus with 12 samples.

Results

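Regions with BMAL1 peaks called in control but not in senescent cells, far from the start sites of protein-coding genes, are described here. They were chosen by peak calls: peaks of the 6 BMAL1-ChIP-seq lists that shared 1 bp or more were joined into regions, and a region was kept when at least 2 of 3 control libraries and 0 of 3 senescent libraries had a peak in it and its midpoint lay more than 50000 bp from the nearest protein-coding start site. This left 391 control-only far regions of 16818 regions in all. Since the calls chose them, their calls, ranks and scores are a description and were not tested.

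Primary mouse adult fibroblasts (MAFs) were grown from ear tissue of adult C57BL6/J females. The control group was sham irradiated, whereas the senescent group received 20 Gy of X-rays and was cultured further. Both groups were kept at 3% oxygen, were given 100 nM dexamethasone for 2 hours to synchronize their clocks and were fixed 12 hours after that for BMAL1-ChIP-seq, with 3 libraries per group. Peak lists hold no expression, so the fibroblast label could not be checked by markers, and nothing says whether replicates came from separate animals or cultures, so a spread between libraries may be technical. The lists gave no reads and no depth, so a missing peak was a peak not called and does not show that BMAL1 was absent.

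BMAL1 pairs with CLOCK, and the dimer binds the E-box CACGTG at clock genes such as the Period genes. Sites far from start sites often lie in enhancers, where several factors bind close together. RUNX proteins are DNA-binding factors known for bone, cartilage and blood development, AP-1 is the dimer of FOS and JUN proteins that responds to growth signals and stress, and TEAD proteins bind DNA for the Hippo pathway effectors YAP and TAZ.

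Control-only regions made up 10.7% of the 3647 far regions and 4.52% of the 13171 regions within 50 kb of a start site, against 5.86% of all regions. The opposite pattern, a call in at least 2 senescent and 0 control libraries, was held by 8.8% of far regions (321) and 9.62% of the nearer ones. A call in all 3 control and 0 senescent libraries was held by 2.99% of far regions (109). Control replicate 3 had 10601 peaks, against 2794 and 3349 in control replicates 1 and 2 and 4220 to 9805 in the senescent libraries. It called 381 of the 391 regions, whereas control replicates 1 and 2 called 228 and 282. Without that library the rule found 120 regions, which were 5.16% of 2327 far regions, against 1.72% of the regions within 50 kb. The opposite pattern was then held by 454 far regions (19.5%), where only control replicates 1 and 2 could exclude a region, so the order of the 2 patterns depended on control replicate 3. The shares, motifs, chains and gene lists were computed from the other 5 libraries as well and are given below, whereas the single regions named further on rest on all 6.

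Sequences of the best-ranked regions with a motif are shown first, from the plus strand of GRCm38 (mm10). The comparison of motifs below counts such sites only within 100 bp of the peak centre. Capitals mark the motif letters searched on both strands: RUNX (TGTGGTTA or TGTGGTTT), the E-box (CACGTG) and AP-1 (TGACTCA or TGAGTCA). The first 5 hold a RUNX motif, and 3 of these hold an E-box as well, which begins upstream of the RUNX motif on this strand.
Gm8797 region, chr3:5860512-5860579: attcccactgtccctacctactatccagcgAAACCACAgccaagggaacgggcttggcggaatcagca
Adra1b region, chr11:43992268-43992408: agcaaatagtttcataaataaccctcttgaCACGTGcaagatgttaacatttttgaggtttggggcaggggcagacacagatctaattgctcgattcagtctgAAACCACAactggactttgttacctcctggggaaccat
Gli2 region, chr1:118928091-118928207: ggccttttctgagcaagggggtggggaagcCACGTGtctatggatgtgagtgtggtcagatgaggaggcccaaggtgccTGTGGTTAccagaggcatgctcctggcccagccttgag
Ncam2 region, chr16:81379237-81379314: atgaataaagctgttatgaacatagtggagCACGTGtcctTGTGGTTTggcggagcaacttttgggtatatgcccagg
Rhobtb1 region, chr10:68976814-68976881: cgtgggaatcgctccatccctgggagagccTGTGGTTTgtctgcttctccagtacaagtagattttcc
The next region holds an E-box alone, and the 3 after it hold an AP-1 motif.
Ccdc115 region, chr1:34304237-34304302: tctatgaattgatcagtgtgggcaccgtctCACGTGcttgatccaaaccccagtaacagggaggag
Enox1 region, chr14:77456926-77456992: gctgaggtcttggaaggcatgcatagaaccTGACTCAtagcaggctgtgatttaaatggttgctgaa
Klf5 region, chr14:99631269-99631335: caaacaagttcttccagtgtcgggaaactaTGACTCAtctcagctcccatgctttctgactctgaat
Cracr2a region, chr6:127661866-127661932: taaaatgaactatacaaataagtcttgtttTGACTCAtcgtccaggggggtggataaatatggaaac
The following 3 regions hold 2 RUNX motifs each across their whole length. In the Rasgrp1 and Eya4 regions both motifs lie more than 100 bp from the peak centre. These regions are therefore counted below as having no RUNX motif.
Rasgrp1 region, chr2:117461659-117461836: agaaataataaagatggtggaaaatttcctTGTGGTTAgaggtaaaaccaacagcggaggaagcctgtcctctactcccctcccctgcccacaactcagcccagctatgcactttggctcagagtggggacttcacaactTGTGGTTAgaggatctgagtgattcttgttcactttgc
Eya4 region, chr10:23557958-23558069: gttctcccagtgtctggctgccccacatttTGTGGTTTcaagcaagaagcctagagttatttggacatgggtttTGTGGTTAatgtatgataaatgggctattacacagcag
Zbtb20 region, chr16:43190468-43190595: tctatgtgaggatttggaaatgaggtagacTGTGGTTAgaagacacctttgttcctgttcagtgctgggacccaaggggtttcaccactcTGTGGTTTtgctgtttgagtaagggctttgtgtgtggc
Most regions held none of the 3 motifs around the peak centre. The example given last, by the central 200 bp of its peak, led the regions called in all 3 control libraries by mean rank. Across its whole length of 985 bp it held 1 RUNX motif, outside the stretch shown.
Setd4 region, chr16:93369332-93369531: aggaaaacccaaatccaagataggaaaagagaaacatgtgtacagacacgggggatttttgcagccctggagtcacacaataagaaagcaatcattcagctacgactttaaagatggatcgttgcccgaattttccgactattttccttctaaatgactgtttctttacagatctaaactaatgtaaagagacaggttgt

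The sequence around the peak centres of control-only far regions was richer in RUNX motifs and poorer in AP-1 motifs than that of the other far regions. It was also poorer in E-boxes, a difference that lay within the intervals once control replicate 3 was left out. Motifs were counted within 100 bp of the centre of the best-ranked peak of each region, and windows of the same length 2000 bp to either side served as background. A RUNX motif was found in 54 of 391 control-only far regions (13.8%, 95% Wilson interval 10.7% to 17.6%), in 6.82% (6.0% to 7.74%) of the 3256 other far regions and in 4.57% of all regions. The flanks held it in 2.81% and 2.33% of windows of the first 2 sets. The same letters in a rearranged order (GTTGTGAT or GTTGTGTT) were found in 1.53% and 1.57%. The intervals cover counting error only, and neighbouring regions are not independent.

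The E-box, the site of BMAL1 and CLOCK themselves, was found in 38 control-only far regions (9.72%, 7.16% to 13.1%) and in 15.2% (14.0% to 16.5%) of the other far regions. It stood at 2.30% in the flanks of the control-only far regions, so it was still more frequent at their centres. Far regions called in all 6 libraries held it in 49.7% and senescent-only far regions in 41.1%. The variant CACGTT was found in 6.39% of control-only far regions and 5.77% of the others, and 61 control-only far regions (15.6%) held at least 1 of the 2 forms.

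AP-1 was the most frequent of the 3 motifs in absolute terms, in 70 control-only far regions (17.9%, 14.4% to 22.0%), but it was found in 25.3% (23.8% to 26.8%) of other far regions and in 32.7% of senescent-only far regions. Far regions with 1 control call (17.8%) and control-only regions within 50 kb (12.4%) had a like or lower share, so the low AP-1 share was not particular to control-only far regions. The TEAD motif (GGAATGC or GGAATGT) was found in 68 control-only far regions (17.4%, 14.0% to 21.5%) and 14.7% (13.5% to 15.9%) of the others, with overlapping intervals. NFAT (TTTTCCAA), the site of calcium-responsive factors, was found in 12 (3.07%) against 2.49%. SOX (ACAATGG) was found in 3.07% (1.76% to 5.29%) against 1.66% (1.27% to 2.16%) of other far regions, with 3.32% and 3.01% in the flanks. CTCF, the boundary factor, and NFI, both searched by their long motifs, and ETS (CCGGAAGT) were found in 0 of 391, which allows a share of up to 0.767% for each (3 regions of 391). The Wilson interval reaches 0.973%. Other far regions held CTCF in 0.921%, NFI in 0.0614% and ETS in 0.0307%, so these motifs were rare there as well. The glucocorticoid receptor motif, the site of the receptor that dexamethasone activates, was found in 4 (1.02%) against 0.584% of other far regions.

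Few control-only far regions held more than 1 of RUNX, AP-1 and the E-box, each of which was found in only 9.72% to 17.9% of them. Whether the motifs met less often than these shares allow was not tested. RUNX and AP-1 occurred together in 7 regions, RUNX and the E-box in 5, and AP-1 and the E-box in 2, while 243 regions (62.1%) held none of them. RUNX motifs lay near the peak centre. In the 100 bp on either side, 7.67% and 6.65% of control-only far regions held it, against 3.65% and 3.53% of other far regions, as the plot of motif position shows.

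**Figure D1:**
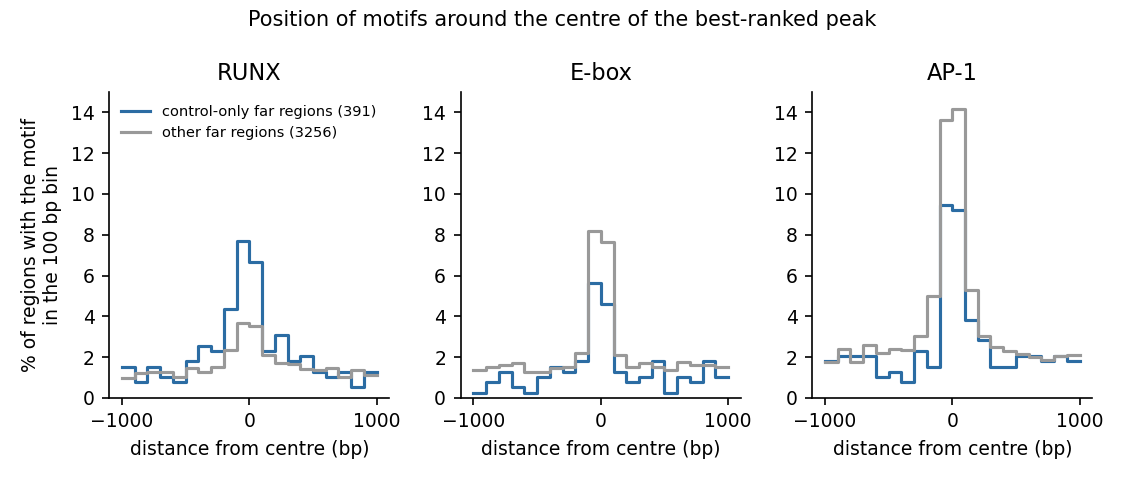
Share of regions (%) with a RUNX motif, E-box or AP-1 motif in each 100 bp bin, against the distance (bp) from the centre of the best-ranked peak. Blue lines are the 391 control-only far regions and grey lines the 3256 other far regions; RUNX peaks higher at the centre in blue, E-box and AP-1 in grey.

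Control-only far regions had the highest RUNX share of the region sets compared. RUNX was found in 8.57% (6.58% to 11.1%) of control-only regions within 50 kb of a start site. This interval overlaps that of the control-only far regions (10.7% to 17.6%). The motif was found in 7.71% of the 1504 far regions with 1 control call and 0 senescent calls. It stood at 3.74% in senescent-only far regions and at 3.27% in far regions called in all 6 libraries. The E-box share was lower still in the far regions with 1 control call, at 4.06%, so the low E-box share was not particular to control-only far regions. Among the control-only far regions RUNX was found in 20 of the 109 called in all 3 control libraries (18.3%, 12.2% to 26.6%) and in 34 of the 282 called in 2 (12.1%, 8.76% to 16.4%), with overlapping intervals. It was found in 12.9% of regions inside a protein-coding gene and 14.5% of those outside. With both sets rebuilt without control replicate 3, RUNX was found in 17.5% (11.7% to 25.3%) of the 120 control-only far regions and 6.62% (5.65% to 7.73%) of 2207 other far regions, and AP-1 in 11.7% (7.08% to 18.6%) and 29.1% (27.3% to 31.1%), with intervals that did not overlap. The E-box was found in 15.8% (10.4% to 23.4%) and 21.4% (19.8% to 23.2%), with overlapping intervals. TEAD stood at 14.2% and 15.8%. SOX was found in 8 of the 120 (6.67%, 3.42% to 12.6%) and in 1.81% (1.33% to 2.46%) of other far regions, with intervals that did not overlap. In this rebuilt set, far regions with 1 control call held RUNX in 9.55% (7.14% to 12.7%), an interval that overlaps that of the control-only far regions. Split by distance, the intervals overlapped for RUNX, AP-1 and the E-box but not for TEAD, with 22.1% (17.3% to 27.9%) of regions over 100000 bp from a coding start and 10.3% (6.41% to 16.0%) of the nearer ones.

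To ask whether the motif difference held within single libraries, peaks in control-only far regions were compared with the other far peaks of the same control library. RUNX was found in 14.3%, 14.2% and 13.2% of the peaks in control-only far regions of control replicates 1, 2 and 3, and in 4.55%, 6.60% and 7.97% of their other far peaks. It was higher in 3 of 3 libraries, by 7.51 ± 2.27 percentage points (SD, n = 3; exact two-sided permutation test by sign flips, p = 0.25, which is the smallest that 3 pairs allow, and 0.25 after Benjamini-Hochberg adjustment over 4 comparisons). The libraries share most of these regions, so they do not repeat the observation independently.

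The E-box was found in 13.9%, 8.30% and 8.61% of peaks in control-only far regions of control replicates 1, 2 and 3, against 33.1%, 26.4% and 10.6% of their other far peaks. The difference was -19.2 and -18.1 percentage points in control replicates 1 and 2 but -1.99 in control replicate 3, whose long list held few E-boxes throughout. The mean difference of -13.1 was -9.08 without control replicate 3 and -8.97 without control replicate 2. AP-1 was lower by a mean of -7.31 ± 4.09 percentage points (-13.2 in the regions found without control replicate 3), and the median GC content by -3.0 ± 1.32 percentage points (SD, n = 3 libraries), each in 3 of 3 libraries (exact two-sided permutation test, p = 0.25). At the level of regions, the median GC content was 43.5% in control-only far regions, 46.5% in other far regions and 49% in senescent-only far regions. It was also 43.5% in far regions with 1 control call, so the low GC content was not particular to control-only far regions.

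**Figure D2:**
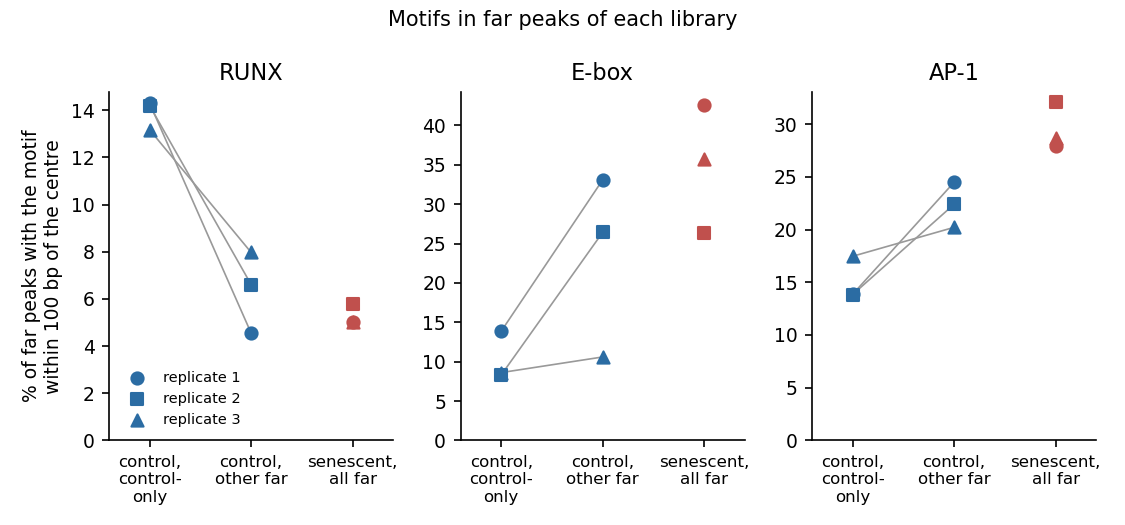
Share of far peaks (%) with each motif within 100 bp of the peak centre, 1 point per library. Blue points joined by lines are peaks of a control library in control-only far regions and its other far peaks, and red points are all far peaks of senescent libraries; RUNX falls from 13.2% to 14.3% on the left to 7.97% or less, whereas E-box and AP-1 rise.

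Control and senescent libraries were then compared over all their far peaks. Far peaks made up 22.4% ± 0.965 of the control lists and 16.2% ± 1.23 of the senescent lists (SD over 3 libraries each), a difference of 6.14 percentage points in which every control library lay above every senescent one (two-sided exact permutation, p = 0.1). This p is the smallest that 3 libraries against 3 allow, so this design cannot reach 0.05. When peaks in control-only far regions were left out, the far share of control libraries was 15.5%, 13.9% and 20.2%, a mean 0.268 percentage points above the senescent one. With peaks in senescent-only far regions left out as well, the senescent far share was 12.2% ± 0.212. These values were not tested, since the peaks left out were chosen by calls in the same libraries and by the distance that the share measures.

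Far peaks of control libraries held a RUNX motif in 8.20%, 9.68% and 8.81%, and those of senescent libraries in 5.02%, 5.78% and 5.04%. Every control library lay above every senescent library, by 3.62 percentage points in the mean (two-sided exact permutation, p = 0.1, with 3 libraries per group, and 0.1 after Benjamini-Hochberg adjustment over 4 comparisons). Outside the control-only far regions the control shares were 4.55%, 6.60% and 7.97%, which overlap the senescent ones, and the mean difference was 1.09 percentage points. Here too peaks were taken from the control lists alone, by the rule that chose the regions, so this is a description with no test. Over all far peaks the E-box was at 18.4% ± 7.82 in control and 34.9% ± 8.12 in senescent libraries, and AP-1 at 19.7% ± 0.786 and 29.6% ± 2.26, with every senescent library above every control library (exact permutation test, p = 0.1 for each). For the E-box the groups were separated narrowly, with 26.4% in the lowest senescent and 25.9% in the highest control library, and they overlapped (exact permutation test, p = 0.2) with scores above each list's median, beyond 20 or 100 kb, and with motifs counted over whole peaks. Leaving 1 library out did not change the E-box shares of the others, so the groups stayed separated. Even so, the exact permutation p was 0.2 when any library other than senescent replicate 2 was left out, with 0.1 as the smallest possible. The groups were then unequal in size, and another arrangement of the libraries gave at least as large a difference. Outside the control-only far regions, far peaks of control libraries held AP-1 in 22.4% ± 2.14 and the E-box in 23.4% ± 11.6, again without a test.

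The control-only far regions lay in the lower part of the lists of control replicates 1 and 2 and in the upper part of that of control replicate 3. In control replicates 1, 2 and 3 their median rank stood at 63.6%, 56.9% and 36.5% of the list, where 0% is the best score. Counted by peak, the medians were 63.9%, 57.4% and 37.3%, against 48.5%, 53.2% and 57.0% for the other far peaks of the same lists. In the best 10% of the list were 3, 1 and 42 of the regions. Median scores, read as the −log10 of a q-value, were 5.45, 6.09 and 8.27. Scores grow with depth and were compared within a list only. In all 3 lists the regions ran from the upper ranks to the bottom. The list of control replicate 3 is over 3 times as long, which by itself moves a region to a better percentage. The 3 medians were therefore not compared with each other. Percentages of different lists did serve to choose the best-ranked peak of each region, whose centre sets the motif window. They were also averaged into the mean rank that chose the best-ranked regions. Both choices may favour control replicate 3, which was not tested.

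**Figure D3:**
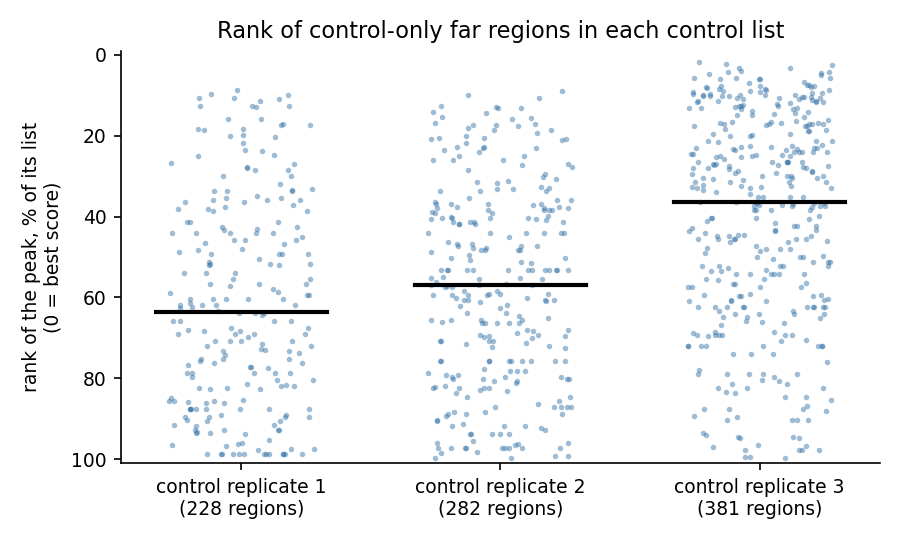
Rank of the best peak of each control-only far region as a percentage of the list (0 = best score), for the 228, 282 and 381 regions called in control replicates 1, 2 and 3. Points are regions and black lines medians (63.6%, 56.9% and 36.5%); ranks cover most of each list.

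Of the 10 best-ranked regions called in all 3 control libraries, the first was intergenic (chromosome 16, 93368940 to 93369924), 234371 bp downstream of the start of Setd4 and 288 bp from the start of the microRNA gene Mir802. Its ranks were 303, 304 and 190 in the 3 control lists, in replicate order, with scores of 18.9, 19.6 and 42.3, and its nearest region with a senescent call was 43617 bp away. A region in an intron of Enox1 (chromosome 14, 77456486 to 77457487) stood at ranks 296, 440.5 and 450. A region between genes upstream of Rasgrp1, an activator of RAS (chromosome 2, 117461580 to 117462400), stood at ranks 351, 484.5 and 609.5. All 3 regions were wide for the set, at 985, 1002 and 821 bp against a median of 332 bp.

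Others of the 10 lay 332171 bp downstream of the start of Klf5, a Krüppel-like transcription factor (chromosome 14, 99631067 to 99631583; ranks 355.5, 561.5 and 425), in an intron of Cracr2a, which takes part in calcium entry (chromosome 6, 127661790 to 127662309; ranks 317.5, 360 and 1268.5), and in an intron of Xylt1, the xylosyltransferase that starts glycosaminoglycan chains on proteoglycans (chromosome 7, 117435818 to 117436512; ranks 358, 772 and 343.5). The widest, of 1697 bp, lay in an intron of Dnm3 (chromosome 1, 162224492 to 162226188; ranks 514.5, 575 and 796.5).

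The remaining 3 were narrow and were not unique in the genome. They lay in an intron of Jarid2, nearest to the start of Dtnbp1 (chromosome 13, 44869552 to 44869734, 183 bp), between genes near Gm8797 (chromosome 3, 5860536 to 5860742, 207 bp) and in an intron of Camk1d, nearest to the start of Ccdc3 (chromosome 2, 5379226 to 5379388, 163 bp). A further 11, 4 and 4 stretches of at least 100 bp on the assembled chromosomes matched them at 90% identity or more. The best copy of the Camk1d region (98.1% identity over 107 bp) lay on chromosome 3 at 5860338 to 5860444, just before the Gm8797 region. In all, 11 of the 391 regions (2.81%) had such a copy, against 1.87% of other far regions, and the part of multiple copies in their calls was not tested. The Gm8797 and Ncam2 regions among the sequences above are 2 of the 11. Without the 11 regions, RUNX was found in 13.7% of the remaining 380, the E-box in 9.47% and AP-1 in 18.2%.

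Of the 3 members farthest from a coding start, a region 1177465 bp from Cited2, a transcriptional co-regulator, was called by control replicates 1 and 3 (ranks 1887 and 4058.5). Those 908501 bp from Ttll7 and 860085 bp from Triml1 were called by all 3 control libraries, with ranks of 2447.5, 1237.5 and 5754.5 for the first and 775, 1599 and 5023.5 for the second. Just inside the limit of 50000 bp were regions nearest to Vill (50206 bp), Mcu (51162 bp) and Snx11 (51587 bp), and just outside it were Rab3c (49909 bp), Kcnj1 (49898 bp) and Zfp236 (49751 bp). Below the limit of 2 control calls stood 1504 far regions with 1 control call, 1365 of them from control replicate 3. A further 92 far regions had at least 2 control calls and 1 senescent call, of which 63 came from senescent replicate 2.

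The regions were far from protein-coding start sites, but most lay in a protein-coding gene or within 50000 bp of some annotated start site. The midpoint lay in an intron of a protein-coding gene in 167 regions and in an exon in 3, which together were 43.5%, against 40.8% of other far regions. In 62 of these 170 the gene that held the region was not the gene with the nearest start. A start site of some annotated transcript, coding or not, lay within 50000 bp of 245 regions (62.7%), within 10000 bp of 87 and within 1000 bp of 16. The nearest such transcript was a lincRNA for 92 regions, a processed pseudogene for 78, a coding gene for 54 and a microRNA for 26. This left 72 regions (18.4%) outside coding genes and over 50000 bp from any start. The shares by start sites of any transcript were not computed for other far regions, so they describe control-only far regions only. The median distance to a coding start was 122032 bp, against 103020 bp for other far regions.

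**Figure D4:**
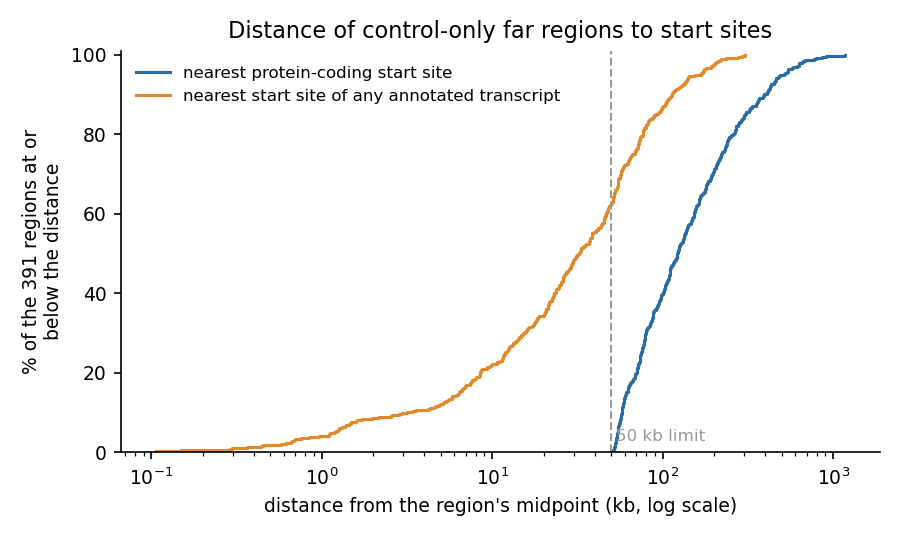
Cumulative share (%) of the 391 control-only far regions against the distance (kb, log scale) from the midpoint to the nearest protein-coding start site (blue) and to the nearest start site of any annotated transcript (orange). The dashed line is the 50 kb limit; 62.7% of regions lie within it of some transcript.

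The regions were spread over the autosomes, with 2 on the X chromosome, and 122 of them (31.2%) lay in chains whose successive midpoints were at most 200000 bp apart. The other 269 were single. No such share was computed for the other far regions, so whether control-only far regions lie closer together than far regions in general was not tested. Without control replicate 3, 25 of 120 (20.8%) lay in a chain, and no chain had more than 3 regions. There were 42 chains of 2 regions, 4 of 3, 2 of 4, 2 of 5 and 1 of 8. The chain of 8 lay within introns of Dnm3, which encodes a dynamin of the membrane fission machinery. Of these, 6 lay between 162216794 and 162226188 on chromosome 1, with 5 inside Dnm3os, the antisense transcript that carries the microRNA genes Mir199a-2 and Mir214. Distances to the start of Dnm3os were 697, 365, 106 and 1261 bp for 4 of the 6. The last of them was the 1697 bp region above, called by all 3 control libraries, and the other 7 of the chain were called by control replicates 2 and 3 only, at 66.1% to 97.4% of the list of control replicate 2. None of the 8 held a RUNX motif, E-box or AP-1 motif. A region with a senescent call lay 292 bp from the first of the 6, so the locus was not free of senescent calls.

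Of the 2 chains of 5, the first lay in introns of Rad51b, a gene of homologous recombination (chromosome 12, 79471863 to 79531990). Each of its regions was called by 2 control libraries. The regions held 1 RUNX motif, 1 AP-1 motif and 1 TEAD motif in all, each in a different region, with an NFAT motif beside the TEAD motif, and the nearest senescent call was 66463 bp away. The second ran from intergenic sequence near Gm10260 into introns of Arhgef28, a guanine nucleotide exchange factor (chromosome 13, 97853326 to 97926184). Control replicate 3 ranked the region at 97923125 to 97923652 at 796.5, whereas control replicates 1 and 2 ranked it at 1659.5 and 3261. Of these 5 regions, 3 were called by all 3 control libraries and 1 held an E-box.

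**Figure D5:**
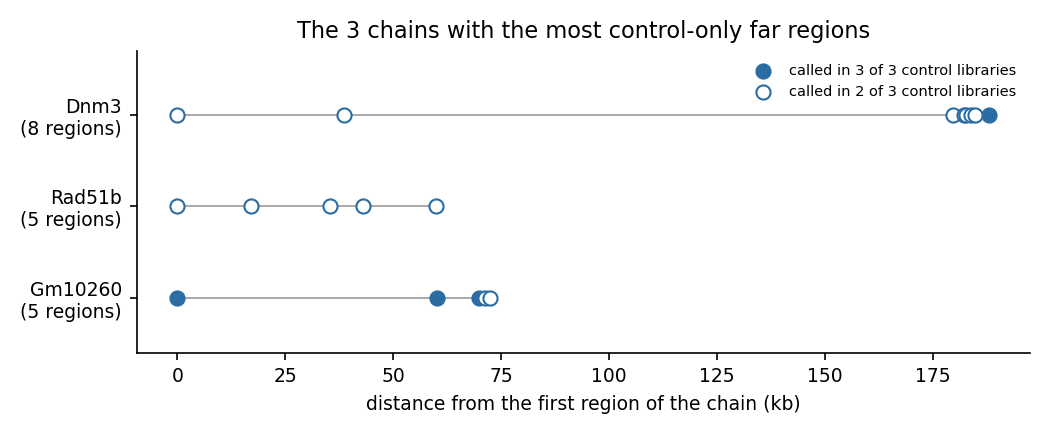
Midpoints of the control-only far regions in the 3 chains with most regions, in kb from the first region of each chain. Filled points were called in 3 of 3 and open points in 2 of 3 control libraries; 6 of the 8 regions at Dnm3 crowd together at the right end.

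In all, 318 genes had the nearest start of at least 1 region, 264 of them of 1 region, 46 of 2 and 8 of at least 3. The 8 were Dnm3 (6), Gm10260, Xylt1 and Rad51b (5 each), Zfp608 and Nfe2l3 (4 each), and Glis3 and Fancc (3 each). Of the Xylt1 regions, besides the one above, those at 117484962 to 117485418 and 117699921 to 117700632 of chromosome 7 were called by all 3 control libraries, at ranks 756.5, 619 and 856 and at ranks 567, 1203 and 515.5. The 4 regions of Nfe2l3, a CNC-type transcription factor, spanned 51076698 to 51362076 on chromosome 6, and the microRNA gene Mir148a was the nearest transcript of 2 of them. The 3 Fancc regions lay in introns of 2010111I01Rik, next to senescent-called regions 1, 503 and 595 bp away, so they bordered on binding that was called in senescent cells.

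Distance to senescent binding varied widely. The nearest region with any senescent call was a median of 85689 bp away. It was within 1000 bp for 19 regions (4.86%) and within 10000 bp for 61 (15.6%).

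Genes near the regions were grouped by lists, chosen with earlier results of these data known, and each count is set beside the share among all 3647 far regions. Skeletal and cartilage genes were nearest to 8 regions (2.05%, against 2.03% of far regions). Sox5 and Sox6, which act with SOX9 in cartilage, had 2 each, and Runx1, Runx2, Trps1 and Col11a1 had 1 each. Both Sox6 regions lay in its introns and were called by all 3 control libraries, the better at ranks 1054.5, 515 and 1191 (chromosome 7, 115624795 to 115625451). The region nearest to Runx2, the master factor of bone formation, lay 267035 bp from its start (chromosome 17, 44468488 to 44468710), was called by control replicates 1 and 2 at ranks 2526 and 2688.5, and held an E-box. Of these regions, that of Trps1 alone held a RUNX motif, together with an AP-1 motif.

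BMP and TGF-beta pathway genes were nearest to 7 regions (1.79%, against 1.65%). These were the receptor Bmpr1b (2), the antagonists Grem1 and Bmper, the inhibitory Smad6 and the matricellular Smoc2 (2). The regions of Grem1 and Smad6 and 1 of Bmpr1b held a RUNX motif. The Bmpr1b region in its own gene (chromosome 3, 142063423 to 142063901) was ranked 1409.5, 3261 and 3347 in the 3 control lists. The other, in an intron of Unc5c, was ranked 486 by control replicate 1 and 2958 by control replicate 2. The study named Runx2, Bmpr1b and Col11a1 from these samples, so their presence is not independent evidence.

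WNT and FGF pathway genes were nearest to 7 regions (1.79%, against 1.29%): the receptors Fzd5, Fzd8 and Ror2, the feedback inhibitor Axin2, the factor Lef1, the antagonist Sfrp1 and the FGF signalling inhibitor Spry2. The Axin2 region (chromosome 11, 109011663 to 109012056) had the best mean rank of the 7, with 656, 593 and 354 in the 3 control lists. The Sfrp1 region held a RUNX motif and those of Ror2 and Lef1 an E-box. A further 3 regions lay in introns of Fgfr2, an FGF receptor gene, while another gene had the nearest start, and 2 of them lay in introns of Cpxm2 or Lhpp as well. Of these 3, the region nearest to Chst15 held a RUNX motif and stood at rank 254 of control replicate 3, 733.5 of control replicate 2 and 2310 of control replicate 1.

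Developmental transcription factor genes were nearest to 17 regions (4.35%, against 3.98%), among them 2 each at Osr1 and Mecom and 1 each at Gli2, Tcf21, Eya4, Ebf1, Klf6, Foxq1, Tfap2a, Klf5, Zfpm2, Nfib, Bnc2 and Ebf3. The Gli2 region, in an intron of this Hedgehog pathway factor, held both an E-box and a RUNX motif and stood at ranks 299.5, 1476 and 627. AP-1 subunit genes were nearest to 2 regions (0.512%, against 0.192% of far regions). Both lay upstream of Jun, 106492 and 133463 bp from its start, the first with an E-box and the second with a RUNX motif, and no other AP-1 subunit gene was the nearest. Circadian clock genes were nearest to 0 of 391, which allows up to 0.767%, against 0.274% of far regions.

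Extracellular matrix and remodelling genes were nearest to 14 regions (3.58%, against 2.91%). They included the collagens Col3a1, Col11a1 and Col25a1, the fibrillin Fbn2, the proteoglycan decorin (Dcn), the hyaluronan synthase Has2 (2), the matricellular Thbs1 (2), the metalloprotease inhibitor Timp3 (2), Adamts5 and Adamtsl3. Cell adhesion and axon guidance genes were nearest to 11 (2.81%, against 2.14%): Flrt2 (2), Itga1, Epha3, Ncam2, Dscam, Pcdh18, Unc5c, Sema3d, Lrrtm1 and Kirrel3. The Flrt2 region on chromosome 12 at 96488560 to 96489054 was called by all 3 control libraries at ranks 481, 698.5 and 1154.5. Without control replicate 3 the lists held 0 to 5 of 120 regions, among them 4 for BMP and TGF-beta (3.33%), 3 for skeletal genes (2.5%) and 1 for extracellular matrix (0.833%). The shares among all far regions of that rebuilt set were 1.76%, 1.25% and 2.06%, in the same order. In the full set, for each of these lists the share among all far regions lay inside the Wilson interval of the share among control-only far regions.

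An enhancer annotated by RefSeq overlapped 5 regions (1.28%), against 34 of 3256 other far regions (1.04%). All 5 were VISTA elements, tested in transgenic mouse embryos. The annotation records activity in limb for 3 of them, those in the Dnm3 chain, near Zfp608 and near Sorl1, and activity in face or brain for those nearest to Gm21897 and Ube2cbp.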

How the data were processed

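BMAL1-ChIP-seq was run on 3 control and 3 senescent libraries; 6 input libraries had no peak list here and were not used. The authors mapped reads to mm10 with BWA, dropped pairs in which neither end mapped uniquely, discarded PCR duplicates (Picard) and called peaks per library with MACS at a false discovery rate of at most 1%. The authors deposited 6 peak lists whose score was read from its lowest values (2.02 to 2.12) as the −log10 of a q-value; whether input served as the control is not given in the sources used here. Depth is unknown.

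From the 35822 peaks, regions were merged, measured to GENCODE M21 basic protein-coding start sites and scanned for 21 motifs in GRCm38 (Python 3.11.15, pysam 0.24.0); copies were sought with BLAST 2.17.0. Scripts were tested on simulated data. Libraries were compared by exact permutation tests. Alternatives covered calls, scores, distance, annotation, motif window and left-out libraries. Named regions were the 10 best-ranked in 3 of 3 control libraries, the 3 farthest, those at the distance limit, in the 3 longest chains or best-ranked with a motif, genes nearest to at least 3 regions and genes of 8 lists. Members and lists were chosen with earlier results of these data known. Some genes of the lists are counted but not reported here by name.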

Additional observations from a re-analysis of the deposited data

How the results depend on the processing

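Of 255 alternative values, 33 counts, shares or medians moved. A count was taken to move when it changed by over 1.5 times, and a share when it left the Wilson interval of the main value. The median GC content moved when it shifted by at least the SD of the medians of the 3 control libraries. Only differences could reverse, and 0 did. Of the 135 values of a difference, all kept direction and 10 moved by over 1.5 times. The far share difference was 3.92 beyond 100 kb and 2.64 with all transcripts. The RUNX difference between groups was 1.85 within 50 bp and 1.09 outside the control-only far regions, and the E-box difference was -26.1 with equal peak numbers. Within control libraries, RUNX was 3.53 with all transcripts and 3.72 within 50 bp, the E-box -7.07 with 3 of 3 calls, and AP-1 -3.95 with higher scores and -13.2 without control replicate 3. The number of regions was 157 with scores above each list's median, 239 with equal peak numbers, 109 with calls in 3 of 3 control libraries, 600 beyond 20 kb, 235 beyond 100 kb and 146 with the start sites of all transcripts. It ranged from 120 to 454 when 1 library was left out, with 219 without control replicate 2 and 120 without control replicate 3. The RUNX share was 18.3% with 3 of 3 calls, 8.18% within 50 bp and 19.9% over the whole region. The E-box share was 6.16% with all transcripts, 5.37% within 50 bp and 13.3% over the whole region. AP-1 was at 9.21% and 22.8%, and NFAT at 1.02%, in the same windows. With 1 library left out, RUNX ranged from 12.8% to 17.5%, the E-box from 7.33% to 15.8% and AP-1 from 11.7% to 18.7%, and the value without control replicate 3 was the highest for the E-box and the lowest for AP-1. The share inside a coding gene was 50.5% with 3 of 3 calls, 50.2% beyond 20 kb, 34.5% beyond 100 kb, 50.7% with all transcripts and 38.1% with the comprehensive annotation (349 regions), and 41.1% to 50.8% with 1 library left out. Median GC was 44% with higher scores and beyond 20 kb, 44.5% with equal numbers, 43% with 3 of 3 calls, beyond 100 kb and with the comprehensive annotation, and 42.5% to 44% with 1 library left out. The cause of these moves was not tested. The comprehensive annotation, the removal of regions with copies and the region sets rebuilt without control replicate 3 were chosen after seeing the data.

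With the replicate number as a replicate block, the mean differences stay the same by construction. They were 6.14, 3.62, -16.5 and -9.84 percentage points for the far share, RUNX, E-box and AP-1 (exact permutation, p = 0.25, the smallest for 3 pairs). The calls of same-numbered libraries, taken as deviations from their group mean, correlated at -0.122, 0.142 and 0.113 over 16818 regions. These values cannot tell whether libraries of the same number shared a batch or an animal. Without reads or depth, a peak that missed the threshold cannot be told from no binding.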
